A study of Mus musculus with 11 samples.

Results

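The genes described here encode the catalytic subunits of the proteasome in their standard and inducible forms, together with the subunits of the PA28 activator caps. They were chosen by name, as 5 immunoproteasome genes (Psmb8, Psmb9, Psmb10, Psme1 and Psme2) and 4 constitutive genes (Psmb5, Psmb6, Psmb7 and Psme3). These 9 genes are among 49315 in the count table, and all 9 passed the filter on low counts that left 18375 genes for testing. Whole-skin RNA from 11 newborn mice was sequenced, 1 mouse per library, to compare gene expression after regulatory T cells (Tregs) were removed in different windows of early life. Every mouse, controls included, was Foxp3-DTR, an allele that places the diphtheria toxin receptor under the Foxp3 promoter so that diphtheria toxin (DT) kills Foxp3-expressing cells. The 2 control mice received PBS, and the label of these libraries does not give their day of harvest. The paper describes its groups as age-matched, with control set against ΔETreg on day 9 and against ΔLTreg on day 13. Here the same 2 control mice were set against skin of both days. Age and treatment therefore cannot be told apart in the comparisons with control. The 3 ΔETreg mice received DT at 30 ng/g on postnatal days 6 and 8 and their skin was taken on day 9. The 3 ΔLTreg mice received DT on days 10 and 12, and the 3 ΔTreg mice received 4 doses from day 6 to day 12, with skin taken on day 13 in both groups. The Foxp3 promoter drives the receptor in Tregs throughout the body, so depletion was not limited to skin. No group received DT without carrying the receptor, so an effect of DT itself and an effect of Treg loss cannot be told apart, and the same holds for the number of doses and their timing.

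Proteasomes are barrel-shaped proteases that degrade ubiquitin-tagged proteins, and their inner rings carry the active sites. In the standard particle these are Psmb5, with chymotrypsin-like activity, Psmb6, with caspase-like activity, and Psmb7, with trypsin-like activity. Interferon gamma and related signals induce Psmb8 (LMP7), Psmb9 (LMP2) and Psmb10 (MECL-1), which take the places of Psmb5, Psmb6 and Psmb7 in newly built particles, and such immunoproteasomes favour peptides that fit MHC class I. Psme1 and Psme2 form PA28αβ, an interferon-inducible cap, whereas Psme3 forms PA28γ, a nuclear cap that is not part of the immunoproteasome. Leukocytes express immunoproteasome genes at rest, while keratinocytes and fibroblasts mostly hold the standard form until they meet cytokines.

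The genes lie on several chromosomes, and the short stretches that follow show which sequence elements were found upstream of their starts. On GRCm38, Psmb8 (chr17:34197721-34201454, plus strand) and Psmb9 (chr17:34181987-34187764, minus strand) flank Tap1, a subunit of the peptide transporter, within the MHC region. Psme1 (chr14:55578123-55581529, plus strand) and Psme2 (chr14:55587441-55591113, minus strand) are also near neighbours, and Psmb5 lies on the same chromosome (chr14:54614119-54618022, minus strand). Psmb10 lies at chr8:105935735-105938444 on the minus strand. Psmb6 lies at chr11:70525367-70527858 on the plus strand, Psme3 at chr11:101316213-101323537 on the plus strand and Psmb7 at chr2:38588036-38644087 on the minus strand. The 250 bases before the RefSeq start (GRCm38.p6) were available for 8 of the 9 genes, all but Psmb7. They were searched on both strands for the core of the gamma-activated site (TTCNNNGAA), the core of the interferon-stimulated response element (GAAANNGAAA) and the core of the antioxidant response element (TGANNNNGC), a class of element bound by Nfe2l1 and Nfe2l2. Among 32817 RefSeq windows of the same length, 7.01% held the first, 2.97% the second and 35.2% the third. A match was found for 5 genes and none for Psmb10, Psme1 and Psme3, and matches of different motifs did not overlap in the windows of these genes. Psme2 has 2 RefSeq starts, and only 1 of its windows held the match. The window of its other start, chr14:55591102-55591351, held none. The matches are printed with up to 10 bases on either side, in the direction of transcription, with the match in capitals.
Psmb8, gamma-activated site core, chr17:34198088-34198116, plus strand: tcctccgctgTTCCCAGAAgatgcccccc
Psmb9, antioxidant response element core, chr17:34187372-34187400, minus strand: ccttgcgcgaTGATGGGGCggggcctcag
Psme2, antioxidant response element core, chr14:55591070-55591098, minus strand: cagcccctgaTGATGAAGCcaacaccgcc
Psmb5, antioxidant response element core, chr14:54618024-54618052, minus strand: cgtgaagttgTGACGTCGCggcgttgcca
Psmb6, antioxidant response element core, chr11:70525338-70525356, plus strand: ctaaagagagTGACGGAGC
The Psmb8 match begins 97 bases before the RefSeq start and reads the same on both strands, being a palindrome at its fixed letters. The matches of Psmb8, Psmb9 and Psme2 lie inside exons of other annotated transcripts that start further upstream, and those of Psmb5 and Psmb6 lie outside annotated exons. The matches describe letters in these windows and were not tested for binding.

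Total counts per library ran from 23377571 to 34159435, and levels are given in CPM, counts scaled to a common library total with TMM factors. The counts of Foxp3 itself were 20 and 14 for control, 10, 16 and 11 for ΔETreg, 23, 13 and 13 for ΔLTreg, and 9, 19 and 18 for ΔTreg. Scaled to library size these were 0.700 and 0.558 CPM for control, with 0.348, 0.526 and 0.471 for ΔETreg, all below control (log2 difference -0.49, edgeR adjusted p = 1), while the other depleted groups overlapped control. Foxp3 was not called in any of the 6 comparisons. The skin label fitted the markers of its main cells: the summed level of 4 keratinocyte genes (Krt5, Krt14, Krt1, Krt10) was between 7780 and 10100 CPM in every library, and that of 4 fibroblast genes between 6170 and 16900 CPM. The median log2 difference over all tested genes was within 0.01 of 0 in each comparison.

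In control skin the standard catalytic genes were far above their inducible counterparts when counts were divided by transcript length. Per kilobase, Psmb6 stood at 177 ± 21 CPM (SD, n = 2), Psmb5 at 129 ± 13 and Psmb7 at 109 ± 7.94. The caps came next, with Psme2 at 58.1 ± 7.26, Psme3 at 50.5 ± 2.63 and Psme1 at 49.3 ± 0.238 CPM per kilobase. The inducible catalytic genes were lowest, with Psmb10 at 8.94 ± 1.86, Psmb8 at 6.47 ± 1.16 and Psmb9 at 3.70 ± 0.151 CPM per kilobase. Neighbours in this order that lay within their summed SDs were Psmb5 and Psmb7 among the standard genes, Psme2, Psme3 and Psme1 among the caps and Psmb10 and Psmb8 among the inducible genes. The ΔETreg mice had the same order. In ΔTreg skin the order was Psmb6 at 168 ± 1.93, Psmb5 at 126 ± 2.22, Psme2 at 115 ± 14.2, Psmb7 at 106 ± 2.48, Psme1 at 97.3 ± 6.72, Psmb8 at 67.6 ± 5.71, Psmb9 at 51.6 ± 6.05, Psme3 at 49.2 ± 1.78 and Psmb10 at 47.3 ± 5.15 CPM per kilobase (n = 3). With these transcript lengths Psmb8 had passed Psme3 there, and the levels of Psmb9, Psme3 and Psmb10 lay within their summed SDs. So did those of Psme2 and Psmb5, of Psme2 and Psmb7 and of Psmb7 and Psme1. The order in each group, including the place of the caps, depends on the length assigned to each gene. The principal transcript used here has 1628 bases for Psmb8, 1160 for Psmb7 and 2664 for Psme3. All annotated exons together have 3381, 3421 and 2949 bases in the same order.

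In ΔTreg skin all 5 immunoproteasome genes rose and none of the 4 constitutive genes was called. The inducible catalytic genes rose 5.28- to 13.9-fold over control and the PA28αβ genes 1.98-fold each. Differences were tested with edgeR's quasi-likelihood test over all 11 libraries, with Benjamini-Hochberg adjustment over the 18375 tested genes and an adjusted p under 0.05 as the call. For comparison, 21.5% of all tested genes were called between ΔTreg and control, and 12.1% were called higher, so 5 of 5 inducible genes stood against a background of that size. For only 4 constitutive genes, a count of 0 is not set apart from a share of 21.5%. The constitutive genes also numbered 0 at an unadjusted p under 0.05, and DESeq2 likewise called 5 inducible genes and 0 constitutive genes.

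**Figure D1:**
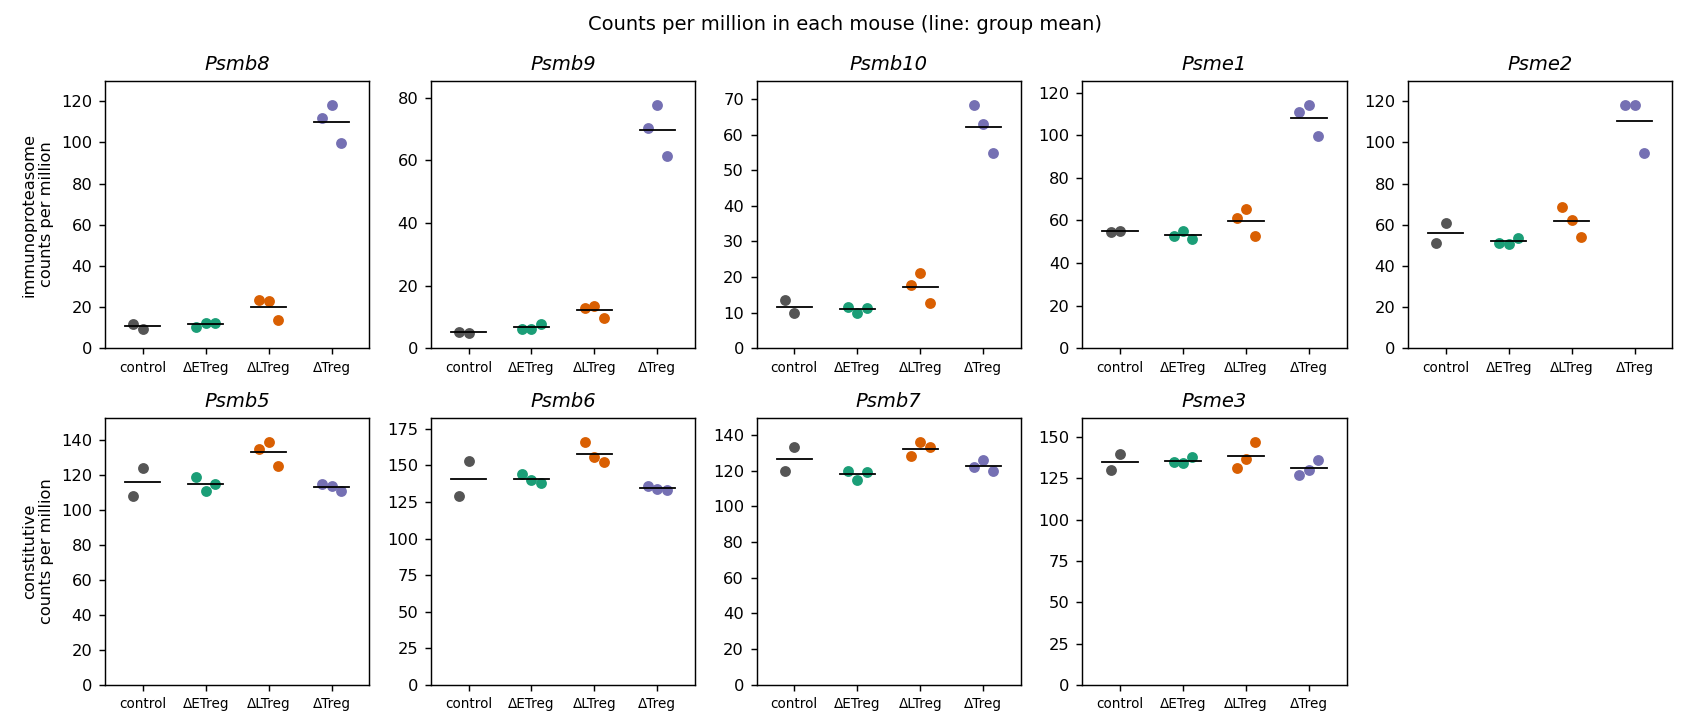
Level of each gene in CPM (vertical axis, from 0) in each of the 11 mice, by group, with a line at the group mean; the upper row holds the 5 immunoproteasome genes and the lower row the 4 constitutive genes. The 3 ΔTreg mice sit above every other mouse in all 5 upper panels and within or close to the range of the control mice in the lower panels.

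Psmb9, which replaces the caspase-like subunit, had 5.15 and 4.86 CPM in control, 6.09, 6.18 and 7.58 for ΔETreg, 12.7, 13.6 and 9.77 for ΔLTreg, and 70.4, 77.6 and 61.3 for ΔTreg. No value of a group lay inside the range of another, and the order was control, ΔETreg, ΔLTreg, ΔTreg. The rise from control to ΔTreg was 13.9-fold (log2 difference 3.80, SE 0.170, 95% interval 3.43 to 4.17, edgeR adjusted p = 1.11e-06). Psmb8, which replaces the chymotrypsin-like subunit, had 11.9 and 9.20 CPM in control, 10.3, 12 and 12.3 for ΔETreg, 23.2, 22.7 and 13.9 for ΔLTreg, and 112, 118 and 99.9 for ΔTreg. The control and ΔETreg mice overlapped, and the lowest ΔLTreg mouse lay just above them. The rise from control to ΔTreg was 10.4-fold (log2 difference 3.38, SE 0.214, interval 2.91 to 3.85, edgeR adjusted p = 3.04e-06). Psmb10, which replaces the trypsin-like subunit, had 13.4 and 10 CPM in control, 11.6, 9.93 and 11.4 for ΔETreg, 17.8, 21.1 and 12.8 for ΔLTreg, and 68.3, 63.0 and 54.9 for ΔTreg. Here control overlapped both ΔETreg and ΔLTreg, every ΔLTreg mouse lay above every ΔETreg mouse, and the ΔTreg mice stood above all others. The rise from control to ΔTreg was 5.28-fold (log2 difference 2.40, SE 0.200, interval 1.96 to 2.84, edgeR adjusted p = 1.71e-05). The interval of Psmb10 lay below those of Psmb8 and Psmb9, whose intervals overlapped, although the differences between genes were not themselves tested.

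Psme1, the α subunit of PA28αβ, had 54.6 and 55.0 CPM in control, 52.5, 54.9 and 51.4 for ΔETreg, 60.9, 65.5 and 52.5 for ΔLTreg, and 111, 114 and 99.8 for ΔTreg. Psme2, the β subunit, had 51.0 and 60.8 CPM in control, 51.2, 50.6 and 53.7 for ΔETreg, 68.7, 62.3 and 53.8 for ΔLTreg, and 118, 118 and 94.7 for ΔTreg. In both genes every ΔTreg mouse lay above all others and control overlapped ΔETreg and ΔLTreg, while ΔETreg and ΔLTreg overlapped each other in Psme1 and narrowly did not in Psme2. Against control the log2 difference was 0.98 for Psme1 (SE 0.0881, interval 0.79 to 1.18, edgeR adjusted p = 2.86e-05) and 0.98 for Psme2 (SE 0.122, interval 0.71 to 1.25, edgeR adjusted p = 0.000255). The intervals of both cap genes lay below those of the 3 inducible catalytic genes, although the differences between genes were not themselves tested.

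The constitutive genes stayed close to their control levels in ΔTreg skin, within narrow limits. Psmb5 had 108 and 124 CPM in control and 115, 114 and 111 for ΔTreg, Psmb6 129 and 153 against 136, 134 and 133, Psmb7 120 and 133 against 122, 126 and 120, and Psme3 130 and 140 against 127, 130 and 136. The groups overlapped for each of the 4 genes. The log2 differences were -0.03 for Psmb5 (interval -0.18 to 0.11), -0.07 for Psmb6 (-0.22 to 0.08), -0.04 for Psmb7 (-0.16 to 0.07) and -0.04 for Psme3 (-0.17 to 0.09), with edgeR adjusted p from 0.491 to 0.758. The intervals leave room for a fall to a log2 difference of -0.22 and for a rise of 0.11 at most in these 4 genes.

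**Figure D2:**
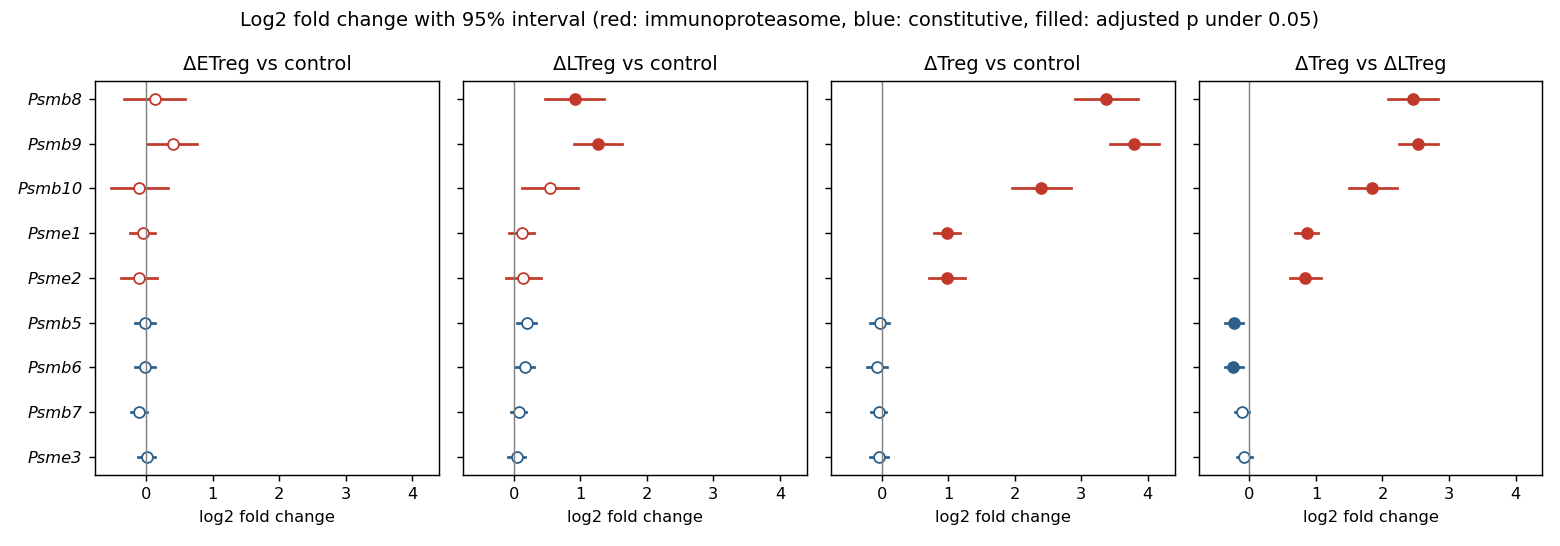
Log2 fold change of each gene (horizontal axis) with its 95% interval for the 3 depleted groups against control and for ΔTreg against ΔLTreg; filled points passed an adjusted p of 0.05. The 5 immunoproteasome genes lie at 0.98 to 3.80 for ΔTreg against control, and the 4 constitutive genes lie between -0.07 and -0.03.

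The comparison of ΔTreg with ΔLTreg keeps the day of harvest the same, with 2 further DT doses, on earlier days, as the difference between the groups. The 5 immunoproteasome genes were again higher in ΔTreg, 5.52-fold for Psmb8 (log2 difference 2.46, interval 2.09 to 2.84, edgeR adjusted p = 6.32e-06), 5.80-fold for Psmb9 (2.54, 2.25 to 2.83, adjusted p = 1.64e-06) and 3.61-fold for Psmb10 (1.85, 1.49 to 2.22, adjusted p = 3.17e-05). The cap genes were 1.82-fold higher for Psme1 (interval 0.69 to 1.03 on the log2 scale, edgeR adjusted p = 3.15e-05) and 1.79-fold for Psme2 (0.61 to 1.08, adjusted p = 0.000317). Over all tested genes 16.8% were called here and 10.7% were called higher. Of the constitutive genes, 2 of 4 were called lower in ΔTreg: Psmb5 by a log2 difference of -0.23 (interval -0.36 to -0.10, edgeR adjusted p = 0.0225) and Psmb6 by -0.24 (-0.37 to -0.10, adjusted p = 0.0216). In ΔLTreg skin Psmb5 had 135, 139 and 125 CPM and Psmb6 had 166, 156 and 152, so every ΔLTreg mouse was above every ΔTreg mouse in both genes. These 2 calls were small, and each was lost when any of several libraries was left out. The adjusted p of Psmb5 was 0.0863 without ΔLTreg mouse 2 and 0.0527, 0.0663 and 0.0783 without ΔTreg mouse 1, 2 or 3. That of Psmb6 was 0.0551, 0.0679 and 0.0709 without the same 3 ΔTreg mice. Over 17 other settings the adjusted p ran from 0.00877 to 0.0863 for Psmb5 and from 0.00344 to 0.0709 for Psmb6. Psmb7 (-0.11, edgeR adjusted p = 0.152) and Psme3 (-0.08, adjusted p = 0.351) were not called. Skeletal muscle, which lies under the skin, differed in amount between these libraries: the summed level of Ckm, Acta1, Myh4 and Mylpf was 2710, 1120 and 3600 CPM in ΔLTreg and 1270, 877 and 1750 for ΔTreg, and its part in the small differences of Psmb5 and Psmb6 was not tested.

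Against ΔETreg, which was harvested on day 9, the 5 immunoproteasome genes were also higher in ΔTreg, by 9.55-fold for Psmb8, 10.6-fold for Psmb9, 5.66-fold for Psmb10, 2.04-fold for Psme1 and 2.13-fold for Psme2, with edgeR adjusted p from 2.63e-07 to 3.57e-05. None of the 4 constitutive genes was called, with log2 differences of -0.07 to 0.06, 0 at an unadjusted p under 0.05 and 0 called by DESeq2, while 23.1% of all tested genes were called and 13.2% called higher. The age at harvest and the number of DT doses cannot be told apart in that comparison.

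In ΔLTreg skin 2 of the 5 immunoproteasome genes, Psmb9 and Psmb8, rose against control, by less than in ΔTreg. Psmb9 rose 2.40-fold (log2 difference 1.26, SE 0.164, interval 0.90 to 1.62, edgeR adjusted p = 0.00216). Psmb8 rose 1.89-fold (log2 difference 0.92, SE 0.203, interval 0.47 to 1.36, edgeR adjusted p = 0.0309). Over all tested genes 4.55% were called between ΔLTreg and control and 1.86% were called higher. The Psmb9 call held under all 17 other settings, with adjusted p at most 0.0355. The Psmb8 call did not: the adjusted p was 0.178 when only the samples of these 2 groups were fitted, 0.0768 and 0.178 without control mouse 1 or 2, and 0.0613 and 0.0548 without ΔLTreg mouse 1 or 2, and over the 17 settings it ran from 8.52e-10 to 0.178. Psmb10 had a log2 difference of 0.55 (interval 0.12 to 0.97, edgeR adjusted p = 0.140) with overlapping groups, and its adjusted p was 0.000622 with no filter on low counts and 0.0258 without ΔLTreg mouse 3, over a range up to 0.477. Psme1 (0.12, edgeR adjusted p = 0.487) and Psme2 (0.14, adjusted p = 0.570) were not called, and neither was any of the 4 constitutive genes, whose log2 differences were 0.04 to 0.20. At an unadjusted p under 0.05 edgeR's count among these 4 was 2, Psmb5 at 0.20 (edgeR adjusted p = 0.130) and Psmb6 at 0.16 (adjusted p = 0.205), and DESeq2's call count was 0. The ΔLTreg mice were uneven, and mouse 3 was the lowest of its group in all 5 immunoproteasome genes. The coefficient of variation within ΔLTreg was 26.2% for Psmb8, 16.8% for Psmb9 and 24.1% for Psmb10, compared with 8.45%, 11.7% and 10.9% for ΔTreg.

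In ΔETreg skin, taken a day after the second DT dose, none of the 9 genes was called against control. Psmb9 was nearest, at a log2 difference of 0.40 (interval 0.02 to 0.77, edgeR adjusted p = 1), with every ΔETreg mouse above both control mice, and it was the 1 gene of the 5 inducible ones at an unadjusted p under 0.05. Psmb8 had a log2 difference of 0.13 (interval -0.33 to 0.58), Psmb10 of -0.10 (-0.53 to 0.33), Psme1 of -0.05 (-0.24 to 0.14) and Psme2 of -0.11 (-0.37 to 0.16), each with edgeR adjusted p = 1. The intervals of Psmb8 and Psmb10 were wider than those of the cap genes. The constitutive genes differed by -0.10 to 0.01, with 0 of 4 at an unadjusted p under 0.05. DESeq2 called 0 of the 9 genes. The whole comparison had 1 called gene of 18375, or 0.00544%, with 872 at an unadjusted p under 0.05 and 19 genes called by DESeq2.

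Set directly against each other, the groups with 2 DT doses differed in the inducible catalytic genes, which were lower in ΔETreg than in ΔLTreg. The log2 difference was -0.79 for Psmb8 (interval -1.18 to -0.40, edgeR adjusted p = 0.0257), -0.87 for Psmb9 (-1.17 to -0.56, adjusted p = 0.00599) and -0.65 for Psmb10 (-1.03 to -0.27, adjusted p = 0.0494), against a background of 6.38% of tested genes called. The cap genes Psme1 (-0.17, edgeR adjusted p = 0.220) and Psme2 (-0.25, adjusted p = 0.198) were not called. The constitutive genes were not called either, at -0.22 for Psmb5, -0.17 for Psmb6, -0.17 for Psmb7 and -0.03 for Psme3, with edgeR adjusted p from 0.0578 to 0.821. The call of Psmb9 held under all 17 other settings, at most 0.0382. The adjusted p of Psmb8 was 0.0738 in a fit of these 2 groups, and 0.0914, 0.0868, 0.0614, 0.0683 and 0.0637 without ΔETreg mouse 1, 2 or 3 or ΔLTreg mouse 1 or 2, over a range of 1.35e-09 to 0.0914. Psmb10 kept its call under 7 of 17 settings, over a range of 2.5e-06 to 0.181, and lost it without any 1 of the 3 ΔETreg mice (0.104, 0.181, 0.105), ΔLTreg mouse 1 or 2 (0.099, 0.132) or any 1 of the 3 ΔTreg mice (0.0648, 0.0722, 0.0602). These skins were taken on days 9 and 13, so age and the window of depletion cannot be told apart.

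Setting each inducible catalytic gene against its standard counterpart, and each PA28αβ gene against Psme3, in the same library removes the effect of library scaling. The share of the inducible gene was taken as its reads per length of transcript over the sum for the pair, and is a share of RNA, not of assembled particles. Psmb9 held 2.30% and 1.84% of the Psmb9 and Psmb6 total in control, 2.44%, 2.54% and 3.15% for ΔETreg, 4.33%, 4.92% and 3.66% for ΔLTreg, and 23.5%, 25.5% and 21.5% for ΔTreg. Psmb8 held 5.73% and 3.92% of the Psmb8 and Psmb5 total in control, 4.60%, 5.64% and 5.59% for ΔETreg, 8.67%, 8.27% and 5.80% for ΔLTreg, and 35.0%, 36.4% and 33.1% for ΔTreg. Psmb10 held 9.02% and 6.24% of the Psmb10 and Psmb7 total in control, 7.88%, 7.10% and 7.86% for ΔETreg, 11%, 12.1% and 7.83% for ΔLTreg, and 33.1%, 30.7% and 28.8% for ΔTreg. In each pair the ΔTreg mice stood far above all others, and with these lengths the standard gene still held the larger share. The caps began nearer to balance, at a level that also depends on the lengths used. Psme1 held 49.4% ± 1.18 (SD, n = 2) of its total with Psme3 in control and 66.4% ± 2.33 (n = 3) in ΔTreg, and Psme2 held 53.4% ± 1.82 and 69.8% ± 3.49 of its total with Psme3.

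**Figure D3:**
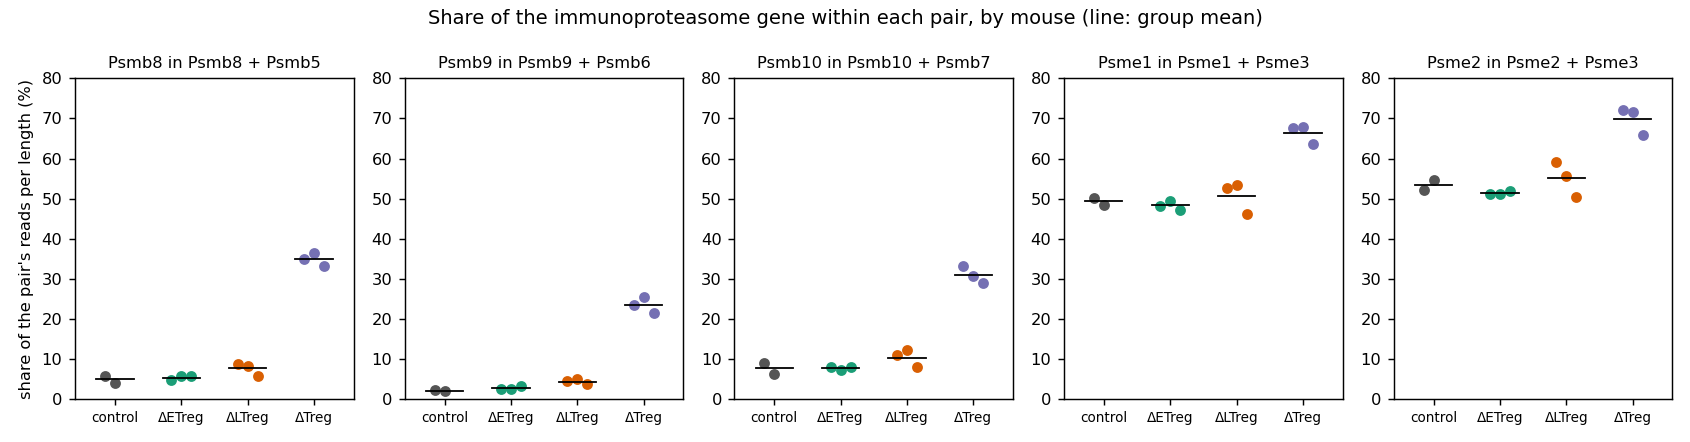
Share of the inducible gene in the reads per length of its pair (vertical axis, percent, from 0) in each mouse, with a line at the group mean. The shares of Psmb8, Psmb9 and Psmb10 are under 13% in control, ΔETreg and ΔLTreg mice and between 21.5% and 36.4% for ΔTreg mice.

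As count ratios, which need no length, the pairs rose from control to ΔTreg by 10.7-fold for Psmb8 over Psmb5, 14.6-fold for Psmb9 over Psmb6, 5.49-fold for Psmb10 over Psmb7, and 2.03-fold for both Psme1 and Psme2 over Psme3. From ΔLTreg to ΔTreg the ratios rose 6.62-, 6.86-, 3.96-, 1.92- and 1.89-fold in the same order. Each of these 10 differences had groups that did not overlap and reached the smallest p that the two-sided exact permutation test can give at this size, 0.2 for 3 mice against 2 and 0.1 for 3 against 3, so that test cannot go below 0.05 here. Adjusted over the 30 ratio tests, these p were 0.286 and 0.25. From control to ΔLTreg the ratio rose 1.62-fold for Psmb8 (exact permutation p = 0.2, adjusted 0.286) and 2.12-fold for Psmb9 (exact permutation p = 0.2, adjusted 0.286), without overlap. The shares depend on the length assigned to each gene: with all annotated exons in place of the principal transcript, a setting chosen after seeing the data, the mean share in ΔTreg was 20.5% for Psmb8, 21.0% for Psmb9 and 50.3% for Psmb10, against 2.39%, 1.80% and 15.7% in control. For the caps these lengths gave mean shares of 35.2% for Psme1 and 40.9% for Psme2 in control, and of 52.4% and 58.3% in ΔTreg. The direction in ΔTreg was the same for each pair, while the level of the shares, and which catalytic pair had the largest, changed with the length used.

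The remainder of the proteasome showed no call between ΔTreg and control. Of the 11 other subunits of the 20S core, which form its outer rings and the non-catalytic places of its inner rings, 0 were called between ΔTreg and control by edgeR or DESeq2, with 1 at an unadjusted edgeR p under 0.05, a median log2 difference of -0.03 and a range of -0.10 to 0.14. The 3 with the smallest adjusted p were Psma4 (0.14, edgeR adjusted p = 0.127), Psmb2 (0.11, adjusted p = 0.242) and Psma6 (-0.10, adjusted p = 0.396). Of the 18 subunits of the 19S regulatory particle, which recognises and unfolds ubiquitin-tagged proteins, 0 were called by either tool and 0 had an unadjusted p under 0.05, with a median of 0.02 and a range of -0.10 to 0.12. Psmd11 (0.12, edgeR adjusted p = 0.265), Adrm1 (0.08, adjusted p = 0.282) and Psmd3 (0.10, adjusted p = 0.314) came first among them. The median over all 18375 tested genes was -0.01. Of 9 assembly chaperones, 8 were tested and 0 were called by either tool, with 0 at an unadjusted p under 0.05. They included Pomp, which guides the building of immunoproteasomes as well as standard particles (0.11, edgeR adjusted p = 0.240), Psmd5 (-0.17, adjusted p = 0.147) and Psmg1 (-0.15, adjusted p = 0.242). In the comparison of ΔTreg with ΔLTreg, Psmd6 of the 19S particle was called lower by edgeR (-0.17, adjusted p = 0.032) and not by DESeq2, and 0 of the 11 core and 0 of the 8 chaperone genes were called by either tool, with 2 core and 2 chaperone genes at an unadjusted edgeR p under 0.05. Against ΔETreg, edgeR called 1 of the 11 core genes higher in ΔTreg, Psma4 (0.17, edgeR adjusted p = 0.0368), where DESeq2 called 3, and 10 of the 11 had positive differences with a median of 0.06. Both tools also called 1 of the 8 chaperones higher there, Pomp in edgeR (0.19, adjusted p = 0.029), and 0 of the 18 genes of the 19S particle. Between ΔETreg and ΔLTreg, edgeR called 3 of the 11 core genes lower in ΔETreg, where DESeq2 called 1: Psma2 (-0.21, edgeR adjusted p = 0.038), Psmb2 (-0.21, adjusted p = 0.0415) and Psmb3 (-0.21, adjusted p = 0.0492), and it also called Pomp lower (-0.24, adjusted p = 0.0323). In that comparison 3 of the 4 muscle genes were also called lower, with sums of 766 to 1290 CPM in ΔETreg and 1120 to 3600 CPM in ΔLTreg, and their part in it was not tested.

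**Figure D4:**
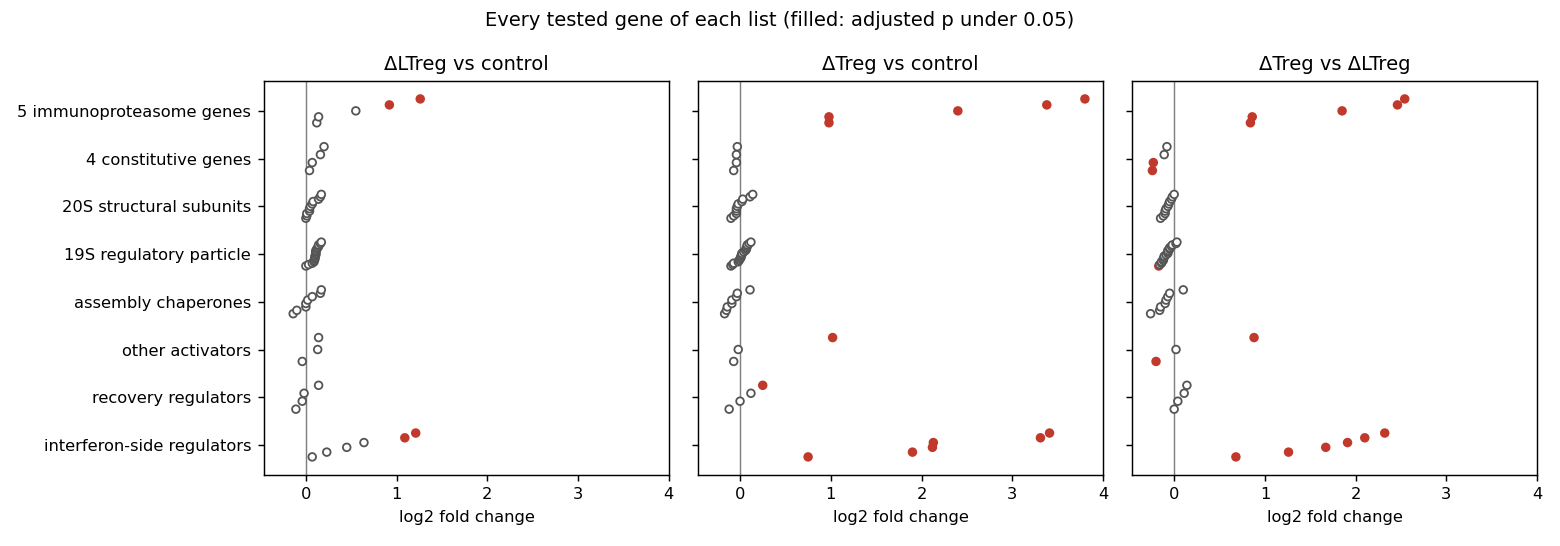
Log2 fold change (horizontal axis) of each tested gene of each list (rows) in ΔLTreg against control, ΔTreg against control and ΔTreg against ΔLTreg; each point is a gene and filled points passed an adjusted p of 0.05. In the middle panel the 11 core genes lie between -0.10 and 0.14 and the 18 genes of the 19S particle between -0.10 and 0.12, while the 5 immunoproteasome genes lie between 0.98 and 3.80.

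Among other activators and tissue-specific subunits, 3 of 5 genes were tested. Psme4, which encodes the PA200 cap, did not pass (-0.02, edgeR adjusted p = 0.838), and neither did Psmf1, which encodes the inhibitor PI31 (-0.07, adjusted p = 0.441), although edgeR, unlike DESeq2, called Psmf1 lower in ΔTreg than in ΔLTreg (-0.20, adjusted p = 0.0229). Psme2b, a retrogene copy of Psme2, rose by a log2 difference of 1.02 (edgeR adjusted p = 0.000455), much as Psme2 did. Of the 738 windows of 100 bases in Psme2b, 384 (52.0%) also occur in Psme2, so its value is uncertain and reads of one may be counted for the other. The thymus-specific Psmb11 and the testis-specific Psma8 did not pass the filter, with at most 3 and 7 counts in any library.

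Regulators on the interferon side rose with the inducible genes. All 6 of the listed genes (Irf1, Nlrc5, Irf8, Irf2, Stat2 and Irf9) were called higher in ΔTreg than in control, with a median log2 difference of 2.13, as were all 6 against ΔLTreg and against ΔETreg. Nlrc5, which drives MHC class I and related genes, had 16.3 and 10.1 CPM in control, 15, 16.3 and 17.1 for ΔETreg, 32.2, 33.3 and 26.8 for ΔLTreg, and 144, 144 and 109 for ΔTreg (log2 difference ΔTreg to control 3.31, edgeR adjusted p = 2.27e-06). Irf1, an interferon-induced transcription factor, had 13.6 and 10.9 CPM in control, 15, 15.5 and 19.1 for ΔETreg, 22.3, 37 and 19.5 for ΔLTreg, and 137, 145 and 110 for ΔTreg (3.41, edgeR adjusted p = 1.24e-05). In both genes the ΔLTreg mice lay above the control and ΔETreg mice and below the ΔTreg mice, with ΔLTreg mouse 3 the lowest of its group and ΔTreg mouse 3 the lowest of its own. Stat2, a part of the type I interferon response, rose by 2.12 (edgeR adjusted p = 1.41e-05). In ΔLTreg 2 of the 6 were called higher than in control, namely Nlrc5 (1.21, edgeR adjusted p = 0.00635) and Irf1 (1.09, adjusted p = 0.0365). In ΔETreg edgeR and DESeq2 each called 0 of the 6 against control, and 0 had an unadjusted edgeR p under 0.05.

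Ifng, the cytokine gene, was near the limit of detection outside ΔTreg. It had 3 and 0 counts in control, 3, 0 and 0 for ΔETreg, 1, 4 and 0 for ΔLTreg, and 54, 82 and 57 for ΔTreg, which correspond to 2.32, 2.43 and 1.76 CPM in the last group. Every ΔTreg mouse was above every other mouse, and the edgeR adjusted p against control was 0.000769. Its receptor gene Ifngr1 rose by a log2 difference of 0.76 (edgeR adjusted p = 0.000145) and the receptor-bound kinase gene Jak2 by 0.52 (adjusted p = 0.000474), and all 5 genes of this list were called. In ΔLTreg, where Psmb8 and Psmb9 were called higher than in control, edgeR and DESeq2 each called 0 of the 5, with 1 at an unadjusted edgeR p under 0.05. Over all tested genes edgeR called 4.55% there, so 0 of 5 is not set apart from that share.

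The next list holds transcription factors that restore standard proteasome genes when proteasome activity is short, and enzymes that process them. Of Nfe2l1, Nfe2l2, Ddi2 and Ngly1, 1 was called in ΔTreg against control, Nfe2l1 at a log2 difference of 0.25 (edgeR adjusted p = 0.0246). Ngly1, which removes sugars from Nfe2l1, was at -0.12 (edgeR adjusted p = 0.181), and Nfe2l2 was at 0.12 (adjusted p = 0.223). Next to this list the standard catalytic genes had differences of -0.07 to -0.03.

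The genes of peptide supply to MHC class I, which carry proteasome products to the cell surface, rose with the inducible subunits. All 5 (Tap1, Tap2, Tapbp, Erap1 and B2m) were called higher in ΔTreg than in control, and 3 of the 5 (Tap1, Tap2 and B2m) were called higher in ΔLTreg. In ΔTreg B2m rose by a log2 difference of 3.07 (edgeR adjusted p = 1.95e-06), Tap2 by 2.73 (adjusted p = 1.42e-06) and Erap1 by 1.18 (adjusted p = 1.11e-06).

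In bulk skin, more RNA of a gene per cell and more cells that carry it cannot be told apart. Most lists of leukocyte markers moved with the inducible genes, but those of dendritic cells and B cells did not do so as a whole. The summed level of 5 leukocyte genes (Ptprc, Cd52, Coro1a, Laptm5, Cd53) was 58.3 to 80.5 CPM in control, 50.4 to 61.8 for ΔETreg, 42.4 to 89.5 for ΔLTreg and 191 to 265 for ΔTreg, and 5 of 5 were called higher in ΔTreg. The 6 T cell genes summed to 10.3 to 12.5, 10.1 to 12.9, 12.6 to 15.4 and 43.7 to 53.3 CPM in the same order, with 6 of 6 called in ΔTreg. The 5 natural killer and cytotoxic cell genes summed to 2.14 to 2.43, 1.74 to 2.30, 3.16 to 4.27 and 41.5 to 43.4 CPM, with 5 of 5 called in ΔTreg. Within this list Gzmb, which encodes a protease of cytotoxic granules, had 3 and 0 counts in control and 593, 901 and 820 for ΔTreg. The 6 macrophage and monocyte genes summed to 113 to 160, 81.0 to 126, 73.1 to 169 and 233 to 294 CPM, with 3 of 6 called, and the neutrophil genes to 10.3 to 12.8, 7.79 to 10.8, 14.9 to 16.5 and 25.9 to 27.3 CPM, with 3 of 3 tested genes called. Ly6g, which defines neutrophils, did not rise with the other neutrophil genes. Its mean was 0.0374 CPM in control and 0.0349 CPM in ΔTreg, with no count in any ΔETreg mouse. Most of the neutrophil sum in ΔTreg came from S100a8 and S100a9, with means of 15.3 and 9.98 CPM. Ms4a1, which defines B cells, had no count in either control mouse. The B cell genes summed to no more than 0.618 CPM in any mouse. The 4 dendritic cell genes (Itgax, Flt3, Xcr1, Cd207) had a median log2 difference of -0.06 between ΔTreg and control. Of these, 1 was called higher, Itgax (2.52 to 8.85 CPM), and 1 lower, Cd207 (4.02 to 1.38 CPM). The part of infiltrating cells in the rise of the immunoproteasome genes was not tested.

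In ΔLTreg, where Psmb8 and Psmb9 were called, edgeR and DESeq2 each called 0 of the 5 leukocyte, 0 of the 6 T cell and 0 of the 5 natural killer genes against control. At an unadjusted edgeR p under 0.05 these numbers were 0, 1 and 3, and the natural killer sums of all 3 ΔLTreg mice lay above those of both control mice. Over all tested genes edgeR called 4.55% in this comparison, so 0 calls in lists of 5 or 6 genes is not set apart from that share. The natural killer genes were also low: the highest in ΔLTreg, Nkg7, had a mean of 1.98 CPM. The leukocyte sum was 67.9, 89.5 and 42.4 CPM in ΔLTreg mice 1, 2 and 3, and the lowest mouse was also the lowest in all 5 immunoproteasome genes. Fibroblast genes moved the other way in ΔTreg, where their sum was 6600 to 7400 CPM against 13000 to 14800 CPM in control and 2 of 4, Col1a1 and Col1a2, were called lower. The melanocyte sum was 649 to 675 CPM in ΔTreg against 1070 to 1260 in control, with 4 of 4 called lower. Endothelial genes summed to 157 to 183 CPM over all 11 mice, but all 3 were called in ΔTreg against control, with Pecam1 higher (63.3 to 102 CPM) and Cdh5 (68 to 52.8 CPM) and Kdr (39.3 to 24.6 CPM) lower. Of the 4 keratinocyte genes 3 were called in ΔTreg against control: Krt14, of basal cells, was higher (log2 difference 0.40, edgeR adjusted p = 0.018), and Krt1 (-1.93, adjusted p = 0.000664) and Krt10 (-0.66, adjusted p = 0.0357), of cells that have left the basal layer, were lower. The part of these shifts in the rise of the immunoproteasome genes was not tested. The standard catalytic genes and Psme3 together summed to 500 to 503 CPM in ΔTreg and 487 to 550 CPM in control.

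**Figure D5:**
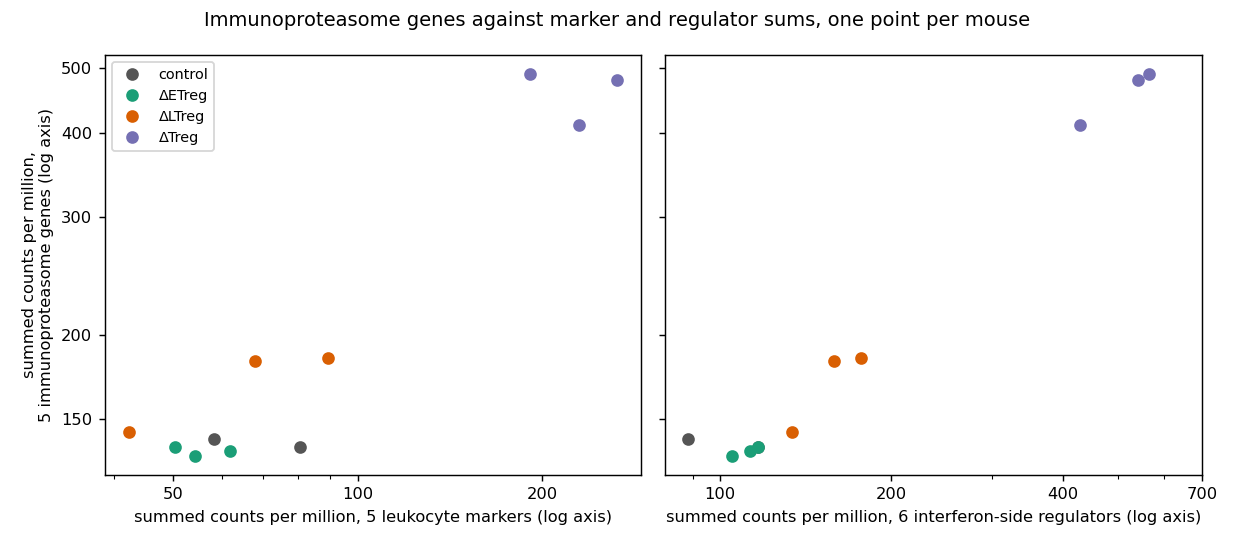
Summed CPM of the 5 immunoproteasome genes (vertical log axis) in each mouse against the summed CPM of 5 leukocyte genes (left, horizontal log axis) and of 6 interferon-side regulators (right, horizontal log axis). The immunoproteasome sum is 411 to 491 in the 3 ΔTreg mice and 132 to 185 in the other 8, and ΔLTreg mice 1 and 2 lie above the control mice on the vertical axis at leukocyte sums of 67.9 and 89.5.

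Across the 11 mice the inducible genes varied as a unit and the standard genes did not follow them. Pearson's r of log2 CPM was 0.96 to 0.99 over the 10 pairs of immunoproteasome genes, 0.33 to 0.93 over the 6 pairs of constitutive genes, and -0.53 to 0.05 over the 20 pairs between the sets. These coefficients describe 11 libraries that share group membership and scaling, and the 3 ΔTreg mice set most of the spread of the inducible genes. Among 13881 tested genes with a mean of at least 50 counts, those most like the mean of the 5 immunoproteasome genes included H2-T22, H2-D1 and Tap1 (r = 0.998 each) and B2m (0.997). Those most like the mean of the 4 constitutive genes were Phb (r = 0.973), Mdh1 (0.972), Smdt1 (0.970), Odc1 (0.968) and Ndufs8 (0.967).

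Some reads of these genes could be shared with overlapping genes, since the strand setting of the counting is not given in the sources used here. Psmb9 overlaps Tap1 on the opposite strand over 212 exonic bases, 5.79% of its exons, and Tap1 rose as well. Psmb8 overlaps the antisense gene Gm20496 over 498 bases, or 14.7% of its exons. Psmb7 overlaps Nek6 over 405 bases (11.8%), Psme1 overlaps Emc9 over 14 bases, both on the opposite strand, and Psmb5 contains the microRNA gene Mir686 on its own strand over 109 bases (12.1%).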

How the data were processed

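Whole-skin RNA was sequenced by the authors as 150-base paired-end reads. The authors trimmed reads with Trimmomatic 0.36, aligned them to GRCm38 with STAR 2.5.2b and counted uniquely assigned exonic reads per gene with featureCounts of Subread 1.5.2. The deposited table holds raw counts for 49315 genes in 11 samples. The annotation release and the strand setting are not given in the sources used here. From these counts, edgeR 4.0.16 (limma 3.58.1, R 4.3.3) was fitted to all 11 samples with TMM scaling, filterByExpr and the quasi-likelihood test, and p-values of the 18375 genes left were adjusted by Benjamini-Hochberg. DESeq2 1.42.0, which the study used, was an alternative, as were other scalings, filters, fits of 2 groups and leaving out each mouse. Count ratios were compared with exact permutation tests in scipy 1.17.1. For the comparison of ΔTreg with control, counts were simulated with the common dispersion of 0.012 for every gene and 200 genes changed. The fit recovered 99% of 200 genes changed by 1.0 on the log2 scale and 8% of 200 changed by 0.4. Small changes are mostly missed in that setting. The 8% is not a rate for the 4 constitutive genes, whose SE in the data ran from 0.0541 to 0.0681. Replicate libraries differed by more than counting error, with median chi-square values of 1.02 to 3.52 where 0.455 is given by counting alone. Each sample is 1 mouse, and all were labelled as 1 batch. Sequences are from RefSeq (GRCm38.p6), and positions, exons and lengths of principal transcripts from GENCODE on GRCm38. Named genes were all 9 members and, from each list, the 3 with the smallest adjusted p in ΔTreg against control, apart from genes named because few of a list were called, genes named as examples within the marker lists, and genes among the 5 most correlated with each set. The members and lists were chosen with earlier results of these data known. Differential expression tables of the authors were not used. A gene of the interferon-side list is not reported here.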

Additional observations from a re-analysis of the deposited data

Results flagged for a closer look

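The inducible catalytic genes differed between the 2 groups given 2 DT doses, by the fit's direct contrast of ΔETreg with ΔLTreg. Psmb8 was lower in ΔETreg by a log2 difference of -0.79 (edgeR adjusted p = 0.0257), Psmb9 by -0.87 (adjusted p = 0.00599) and Psmb10 by -0.65 (adjusted p = 0.0494). Since both groups are set against the same 2 control mice, this contrast equals the difference between their log2 differences from control. Age at harvest, day 9 or day 13, cannot be told apart from the window of depletion in it. Over 17 other settings the adjusted p reached 0.0914 for Psmb8, 0.0382 for Psmb9 and 0.181 for Psmb10.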

How the results depend on the processing

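No paired analysis was possible because the replicate numbers only follow the order of accessions and pair no mice. In ΔTreg all 5 immunoproteasome genes kept their call against control, ΔLTreg and ΔETreg under all 17 other settings. Counts of called genes that moved by over 1.5 times were as follows. ΔETreg against control had 1 gene, with 19 by DESeq2, 0 in a fit of 2 groups, 54 without a filter, 0 with at least 10 counts in every sample, and 0 to 7 leaving out each mouse. ΔLTreg against control had 836 genes, with 154 in a fit of 2 groups, 1790 without a filter, and 292 to 903 leaving out each mouse (292 without control mouse 1, 377 without control mouse 2); its inducible genes numbered 2, with 1 in a fit of 2 groups and 1 to 3 leaving out each mouse. ΔTreg against control had 3946, with 2026 (without control mouse 2) to 4520. ΔTreg against ΔLTreg had 3096, with 1987 (without ΔTreg mouse 1) to 3385, and its constitutive genes numbered 2, with 0 to 2. ΔETreg against ΔLTreg had 1173, with 540 in a fit of 2 groups, 2173 without a filter, and 353 to 1248 leaving out each mouse (573, 353 and 619 without ΔETreg mouse 1, 2 or 3); its inducible genes numbered 3, with 1 and 1 to 4, and its constitutive genes 0, with 1 without a filter and 0 to 2. Values that changed sign did so under settings in which they were not called. Against control, ΔETreg ranges leaving out each mouse were -0.04 to 0.32 for Psmb8, -0.30 to 0.13 for Psmb10, -0.23 to 0.02 for Psme2, -0.12 to 0.09 for Psmb5, -0.12 to 0.12 for Psmb6 and -0.04 to 0.07 for Psme3. Psmb5 was 0.02 by library size alone, and Psmb6 was 0.00 in a fit of 2 groups, 0.03 by library size, 0.00 without a filter and 0.01 with at least 10 counts. ΔLTreg ranges were -0.01 to 0.14 for Psmb7 and -0.01 to 0.09 for Psme3. ΔTreg ranges were -0.14 to 0.06 for Psmb5, -0.19 to 0.05 for Psmb6, -0.12 to 0.02 for Psmb7 and -0.09 to 0.01 for Psme3. ΔTreg against ΔETreg ran from -0.04 to 0.01 for Psmb5, and ΔETreg against ΔLTreg from -0.07 to 0.03 for Psme3. Log2 count ratios ran from -0.13 to 0.44 for Psmb8 over Psmb5 and -0.27 to 0.31 for Psmb10 over Psmb7 in ΔETreg, and from -0.02 to 0.24 for Psme2 over Psme3 in ΔLTreg. Over all members and settings, 855 values kept direction and call, 28 lost a call, 11 gained 1 and 24 changed sign. The cause was not tested. With 2 controls, leaving out either leaves a lone control assumed to vary like the other groups.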
